A study of Mus musculus with 12 samples.

Results

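The integrated stress response and the serine synthesis genes that it controls were followed here through 10 genes: *Atf4*, *Ddit3*, *Trib3*, *Chac1*, *Ddit4*, *Sesn2*, *Phgdh*, *Psat1*, *Mthfd2* and *Asns*. They were chosen by gene symbol from the 55401 genes of the deposited count table, where 11 rows carry these symbols because *Ddit3* has a pair of overlapping entries. RNA-seq was performed on Pax7-ZsGreen+ satellite cells, the muscle stem cells, sorted from hind limb muscle of mice that all carried Cxcr4 FL/FL and Pax7-ZsGreen. *Cxcr4* KO mice also carried Pax7-creERT2, a tamoxifen-inducible cre driven by *Pax7* that leaves some cells undeleted, and *Cxcr4* WT mice lacked cre. Per the labels all mice received 80 mg/kg tamoxifen on 5 days. Freshly sorted cells, termed quiescent, gave 4 libraries of each genotype, and cells kept overnight in growth medium, termed activated, gave 2 of each. The labels do not state whether the libraries came from separate animals, and all p-values measure the spread between these libraries only.

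In the integrated stress response, kinases that sense amino acid shortage, unfolded proteins, viral RNA or heme shortage phosphorylate the translation initiation factor eIF2. General translation then slows, while the mRNA of the transcription factor ATF4 is translated more. ATF4 is therefore regulated largely at translation, and mRNA levels of *Atf4* do not report its protein. Among the genes ATF4 activates are *Ddit3*, which encodes the transcription factor CHOP, the pseudokinase gene *Trib3*, the glutathione-degrading enzyme gene *Chac1*, the mTORC1 inhibitors *Ddit4* and *Sesn2*, and enzymes that make serine, folate-bound one-carbon units and asparagine. Phosphorylation of eIF2 also helps to hold satellite cells in quiescence.

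ATF4 binds with C/EBP proteins to the composite element TGATGNAA. It was searched on both strands in RefSeq promoter windows (GRCm38.p6) that run from 250 bases before to 50 bases after the start of each gene. All 10 genes had a window, and *Chac1*, *Trib3* and *Asns* held the element, against 3.97% of the 32851 windows in the table. The stricter form TGATGCAA, which is contained in the first, was in the *Chac1* window and in 0.895% of all windows. The stretches that hold these matches are shown because this element is how ATF4 is known to reach its target genes. They are written 5′ to 3′ on the strand of the gene, with the match in capitals. The *Chac1* stretch lies at chr2:119351003-119351102 on the plus strand, the *Trib3* stretch at chr2:152344028-152344057 on the minus strand, and the *Asns* stretch at chr6:7693214-7693243 on the minus strand.
Chac1: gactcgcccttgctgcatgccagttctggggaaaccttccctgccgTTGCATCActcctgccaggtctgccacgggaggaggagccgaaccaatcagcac
Trib3: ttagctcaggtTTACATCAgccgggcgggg
Asns: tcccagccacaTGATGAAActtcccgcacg
In *Chac1* and *Trib3* the match was on the strand opposite to the gene, and in *Asns* it was on the same strand. The *Chac1* match began 193 bases before the RefSeq start, the *Asns* match 23 bases before it and the *Trib3* match 15 bases after it. In the GENCODE M21 annotation, where start sites differ slightly, the *Asns* match lay inside the gene and the *Trib3* match 14 bases before its first base. A match of letters is not evidence of binding.

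Quiescent libraries held between 12775593 and 23717013 counts and activated libraries between 3172164 and 5427280. *Cxcr4* was at 59.1 to 112 CPM (TMM-scaled counts, expressed relative to library size) in quiescent WT and 12.5 to 21.2 in quiescent KO libraries, and at 33.3 and 14.5 in activated WT and 5.39 and 13.7 in activated KO libraries. A ribosomal RNA gene took 0.295 to 0.807% of the counts in quiescent libraries. In activated libraries it took 12.6 and 40.3% (WT) and 11.5 and 28.8% (KO). All 8 satellite cell markers checked, *Pax7* and *Myod1* among them, were detected in every group, and their summed level was 4665 to 7995 CPM in quiescent and 2382 to 3554 CPM in activated libraries. The summed level of 6 muscle fibre markers was 232 to 819 CPM in quiescent and 5485 to 13464 CPM in activated libraries. Summed endothelial markers were at 231 to 1007 CPM in quiescent and 97.2 to 684 CPM in activated libraries. Smooth muscle markers were at 438 to 1660 and 151 to 337 CPM, and hematopoietic markers at 54.8 to 341 and 21.6 to 61.4 CPM. Fibroadipogenic markers summed to 236 to 1723 and 204 to 664 CPM. The highest sum of each of these lists was lower in activated libraries. Among the fibroadipogenic markers *Col1a1* had the highest mean in every group. *Col1a1* and *Ly6a* had lower means in activated cells of both genotypes, while *Pdgfra*, *Dcn* and *Lum* had higher ones. *Pi16* was lower in activated WT and higher in activated KO cells. Y-linked transcripts were present in every quiescent library and nearly absent in the activated ones, where *Xist* was at 451 to 817 CPM against 1.20 to 7.17 in quiescent libraries. State therefore coincided with transcripts that mark the sex of the mice, the depth and the ribosomal RNA share. It also coincided with the summed levels of muscle fibre, satellite cell and smooth muscle markers. The parts of all these in any difference between activated and quiescent cells cannot be told apart. In such bulk samples, fewer cells expressing a gene cannot be told apart from less RNA per cell.

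**Figure D1:**
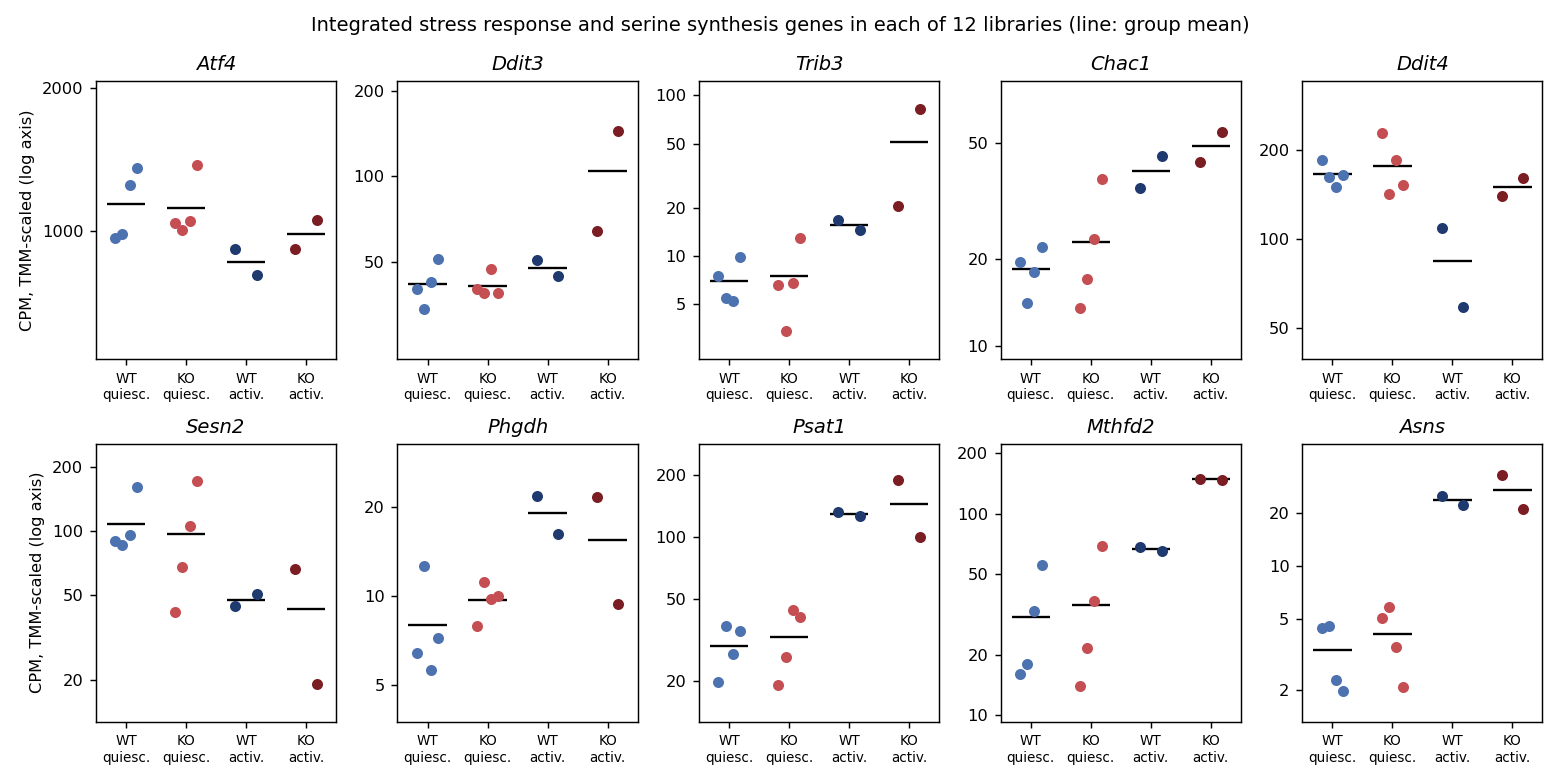
TMM-scaled CPM (log axis) of the 10 genes in each of the 12 libraries. Points are libraries and lines are group means. *Asns* and *Psat1* were higher in each of the 4 activated libraries than in all 8 quiescent ones, and the activated KO libraries of *Trib3* (20.5 and 81.9 CPM) stood far apart.

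Per length, *Atf4* was by far the most abundant of the 10 genes and *Asns* the least abundant in quiescent cells. The authors' FPKM, given once per group, was 469 for *Atf4* in quiescent WT cells, followed by *Ddit4* (91.8), *Sesn2* (30.2), *Ddit3* (23.7), *Chac1* (10.9), *Mthfd2* (8.51), *Psat1* (6.82), *Trib3* (3.20), *Phgdh* (3.12) and *Asns* (1.19). CPM was also divided by exon length in each quiescent WT library. *Atf4*, *Ddit4*, the *Sesn2* and *Ddit3* pair, the group from *Chac1* to *Phgdh* and *Asns* were then separated by gaps between their libraries. Neighbours within these groups overlapped, except *Psat1* (lowest library 4.688 CPM per kilobase) and *Trib3* (highest library 4.624). The lowest *Mthfd2* library (4.611) was below the highest *Trib3* library, and the lowest *Psat1* library was below the highest *Phgdh* library (5.08). In quiescent KO cells *Asns* was also the lowest (1.49 FPKM). There its highest library (2.148 CPM per kilobase) was above the lowest *Trib3* library (1.608). In activated WT cells *Psat1* had risen to the third place (31.3 FPKM) and *Trib3* was the lowest (7.46 FPKM). The *Trib3* libraries there overlapped those of *Phgdh* (7.78 FPKM), which overlapped those of *Asns* (8.82 FPKM). In activated KO cells the third place was taken by *Ddit3* (59.3 FPKM), whose libraries overlapped those of *Ddit4* (84.0 FPKM) and *Mthfd2* (41.7 FPKM). The lower *Ddit3* library (37.3 CPM per kilobase) was below both *Mthfd2* libraries (42.4 and 42.6).

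Coordinates are those of GENCODE M21 on GRCm38. *Atf4* (ENSMUSG00000042406, chromosome 15, 80255184 to 80257541) was at 968, 985, 1252 and 1357 CPM in quiescent WT libraries and at 1039, 1005, 1051 and 1380 CPM in quiescent KO libraries. It was at 916 and 808 CPM in activated WT and at 919 and 1054 CPM in activated KO libraries. All 12 libraries lay between 808 and 1380 CPM, and the activated WT libraries were the lowest. *Ddit3* (ENSMUSG00000025408, chromosome 10, 127290774 to 127296288), the gene of the pro-apoptotic factor CHOP, was at 39.9, 34.0, 42.5 and 50.9 CPM in quiescent WT and at 40.2, 38.6, 47.1 and 38.8 CPM in quiescent KO libraries. It was at 50.6 and 44.7 CPM in activated WT and at 64.0 and 145 CPM in activated KO libraries. Both activated KO libraries were above every other library, and 1 of them stood apart. The second *Ddit3* entry, within chromosome 10 from 127290829 to 127293753, lies inside the first and had 0 counts in every library. Reads shared by both may have been dropped, and how the counting treated them is not given in the sources used here. The same holds for the overlaps of *Ddit3* with *Mars* and *Gm4189*, *Psat1* with *Gm3329*, *Sesn2* with *Gm12981* and *Mthfd2* with *Gm43890*.

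Of the effector genes, *Trib3* (ENSMUSG00000032715, chromosome 2, 152337422 to 152344032), whose protein inhibits AKT and the activity of ATF4, was at 7.52, 5.46, 5.22 and 9.83 CPM in quiescent WT and at 6.63, 3.42, 6.77 and 13.0 CPM in quiescent KO libraries. It was at 16.7 and 14.5 CPM in activated WT and at 20.5 and 81.9 CPM in activated KO libraries. Every activated library exceeded every quiescent one, and 1 KO library again stood apart. *Chac1* (ENSMUSG00000027313, chromosome 2, 119351229 to 119354381) was at 19.6, 14.1, 18.1 and 22.0 CPM in quiescent WT and at 13.6, 17.1, 23.3 and 37.5 CPM in quiescent KO libraries. Its activated levels were 35.0 and 45.1 CPM in WT and 42.9 and 54.5 CPM in KO. Activated libraries were above the quiescent libraries of their own genotype, and WT and KO overlapped in both states.

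The mTORC1 inhibitors were the members with lower mean levels in activated cells besides *Atf4*. *Ddit4* (ENSMUSG00000020108, chromosome 10, 59949669 to 59951834) was at 185, 162, 151 and 165 CPM in quiescent WT and at 229, 142, 185 and 153 CPM in quiescent KO libraries. It was at 110 and 59.1 CPM in activated WT and at 140 and 161 CPM in activated KO libraries. The activated WT libraries were below all others, while the activated KO libraries overlapped the quiescent ones. *Sesn2* (ENSMUSG00000028893, chromosome 4, 132492032 to 132510501), a leucine sensor, was at 90.2, 85.8, 96.1 and 161 CPM in quiescent WT and at 41.8, 67.8, 105 and 171 CPM in quiescent KO libraries. It was at 44.6 and 50.8 CPM in activated WT and at 66.8 and 19.2 CPM in activated KO libraries. The KO libraries spread 4.09-fold in the quiescent and 3.48-fold in the activated state.

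Of the metabolic enzymes, *Asns* and *Psat1* had the largest fitted changes with state in WT cells among the 10 genes. *Phgdh* (ENSMUSG00000053398, chromosome 3, 98313170 to 98339990), the first enzyme of serine synthesis, was at 6.42, 12.6, 5.61 and 7.22 CPM in quiescent WT and at 7.93, 11.1, 9.76 and 9.96 CPM in quiescent KO libraries. It was at 21.9 and 16.2 CPM in activated WT and at 21.6 and 9.35 CPM in activated KO libraries, the last of which lay within the quiescent range. *Psat1* (ENSMUSG00000024640, chromosome 19, 15904678 to 15947337), the next enzyme of the pathway, was at 19.9, 37.2, 27.2 and 35.1 CPM in quiescent WT and at 19.1, 26.2, 44.3 and 41.3 CPM in quiescent KO libraries. It was at 133 and 127 CPM in activated WT and at 189 and 101 CPM in activated KO libraries. No activated library of *Psat1* came near a quiescent one. *Mthfd2* (ENSMUSG00000005667, chromosome 6, 83305691 to 83325908), a mitochondrial enzyme of folate metabolism, was at 16.1, 17.9, 33.0 and 55.7 CPM in quiescent WT and at 13.9, 21.5, 37.1 and 69.4 CPM in quiescent KO libraries. It was at 68.5 and 65.7 CPM in activated WT and at 148.46 and 147.83 CPM in activated KO libraries. The activated KO libraries were nearly equal and above every other library. *Asns* (ENSMUSG00000029752, chromosome 6, 7675169 to 7693254), which makes asparagine, was at 4.49, 4.61, 2.28 and 1.97 CPM in quiescent WT and at 5.11, 5.88, 3.49 and 2.08 CPM in quiescent KO libraries. It was at 25.0 and 22.3 CPM in activated WT and at 32.9 and 21.0 CPM in activated KO libraries. *Phgdh*, *Asns* and *Trib3* rested on few reads in activated cells, with 37 to 134, 51 to 153 and 33 to 359 counts per library. *Asns* also had few in the deeper quiescent libraries, with 41 to 98 counts.

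**Figure D2:**
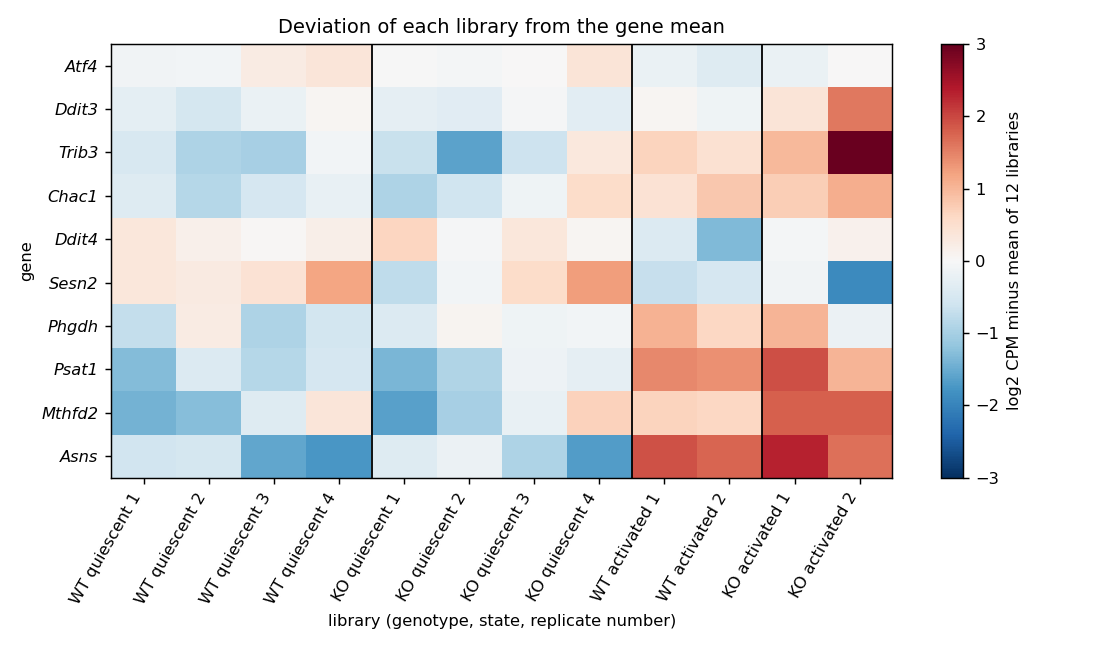
Log2 CPM of each gene (rows) in each library (columns) minus the gene's mean over the 12 libraries, as colour from -3 (blue) to 3 (red). Activated libraries were high for *Asns*, *Psat1* and *Mthfd2*, and activated KO replicate 2 combined the highest *Trib3* and *Ddit3* with the lowest *Sesn2*.

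Among quiescent libraries, replicate 4 was the highest WT library for 6 of the 10 genes and the highest KO library for 5, and it was the lowest for *Asns* in both genotypes. The highest-to-lowest ratio over the 4 libraries ranged in WT from 1.23 for *Ddit4* to 3.47 for *Mthfd2*, and in KO from 1.22 for *Ddit3* to 4.98 for *Mthfd2*. The replicate 4 libraries also had the fewest genes with at least 10 counts (20191 in WT and 19717 in KO) among the quiescent libraries, and the highest summed satellite cell (7431 and 7995 CPM) and hematopoietic markers (151 and 341 CPM) of their genotype. The part of these differences in the levels of the 10 genes was not tested.

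Deletion of *Cxcr4* was compared first in quiescent cells. None of the 10 genes passed the test. Differences were called at an adjusted p under 0.05 from edgeR's quasi-likelihood test, a log2 fold change beyond 1 and a mean count over 10, which 0.0155% of the 25771 tested genes passed in this contrast. The log2 fold changes of the 10 genes lay between -0.17 for *Sesn2* and 0.31 for *Chac1* and *Asns*, with a median of 0.12 against 0.02 over all tested genes. Every adjusted p was 1, no gene had an unadjusted p under 0.05, DESeq2 also called 0, and WT and KO libraries overlapped for each gene. The standard errors, 0.21 to 0.40, bound what 4 libraries against 4 could have shown.

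In activated cells *Trib3*, *Mthfd2*, *Ddit3* and *Ddit4* had higher mean levels in KO than in WT, and none passed the test. The log2 fold change was 1.71 for *Trib3* (SE 0.58, unadjusted p = 0.00772, adjusted p = 0.372 from edgeR) and 1.13 for *Ddit3* (SE 0.34, unadjusted p = 0.00339, adjusted p = 0.280 from edgeR). *Mthfd2* had a log2 fold change of 1.14 (SE 0.58, adjusted p = 0.622 from edgeR) and *Ddit4* one of 0.83 (SE 0.32, adjusted p = 0.456 from edgeR). The other 6 genes lay between -0.32 for *Phgdh* and 0.29 for *Chac1*. Thus 0 of 10 genes were called, against 0.0504% of all tested genes, and 3 had an unadjusted p under 0.05, as did 8.37% of all tested genes. DESeq2 also called 0 of them. Without the filter on low counts, *Trib3* passed (log2 fold change 1.70, adjusted p = 0.0163 from edgeR), where the calls over all genes went from 13 to 332, and DESeq2 made 144 over all genes. Both KO libraries exceeded both WT libraries for 5 genes, *Atf4*, *Ddit3*, *Trib3*, *Ddit4* and *Mthfd2*, and for 15.2% of all tested genes. The median log2 fold change of the 10 genes was 0.24, against 0 over all tested genes.

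**Figure D3:**
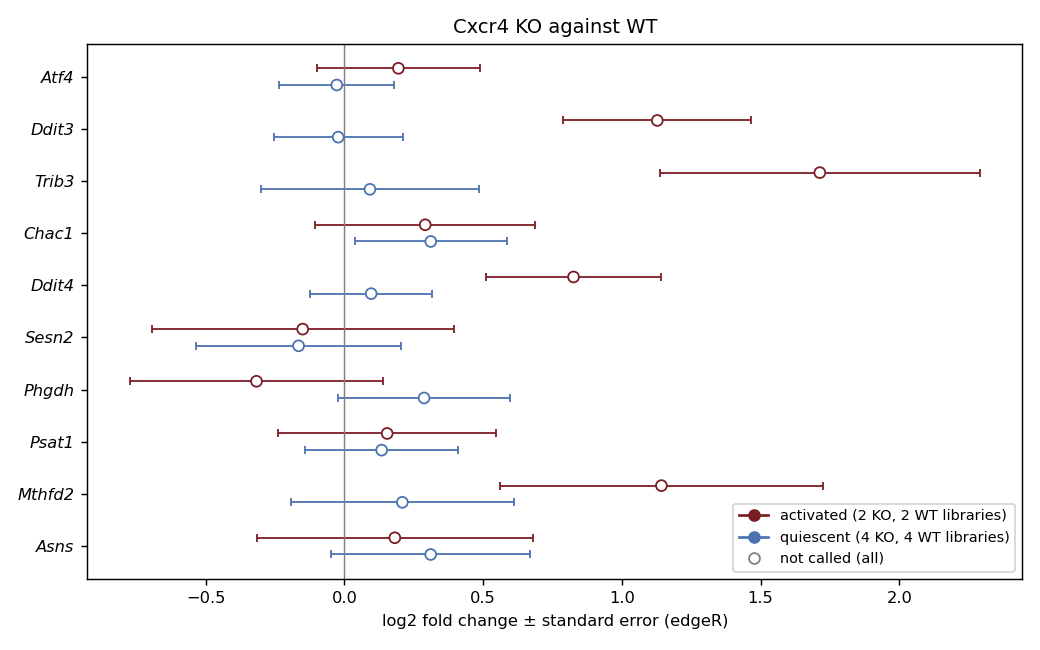
Log2 fold change of *Cxcr4* KO against WT (x axis, points, with standard errors as bars) for each gene in activated and quiescent cells. Quiescent values lie between -0.17 and 0.31, activated values reach 1.71 (*Trib3*), and open points mark that none was called.

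The activated KO libraries did not move together over the 10 genes. Replicate 1 was above both WT libraries for 8 genes and below both for 0. Replicate 2 was above both for 6 genes and below both for the remaining 4, *Sesn2*, *Phgdh*, *Psat1* and *Asns*. The shares of all tested genes in these positions were not computed, so these counts only describe the 10 genes. Without KO replicate 2 the log2 fold change of *Trib3* dropped to 0.34 and that of *Ddit3* to 0.36, while *Mthfd2* stayed at 1.09 and *Ddit4* at 0.67. Without WT replicate 2, *Ddit4* dropped to 0.38. KO replicate 2 had a ribosomal RNA share of 28.8% and a summed muscle fibre marker level of 13464 CPM, against 11.5% and 7359 CPM in KO replicate 1. *Cxcr4* was at 13.7 CPM in KO replicate 2, against 5.39 CPM in KO replicate 1 and 14.5 CPM in WT replicate 2. WT replicate 2, at 40.3% and 12187 CPM, did not have a high *Trib3* (14.5 CPM) or *Ddit3* (44.7 CPM). The part of these measures in the spread of the KO libraries was not tested.

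Whether the KO effect differed between the states was tested as the difference of the contrasts. None of the 10 genes passed, and 0% of all tested genes did. The difference was 1.15 on the log2 scale for *Ddit3* (SE 0.41, unadjusted p = 0.0109, adjusted p = 0.592 from edgeR), 1.62 for *Trib3* (SE 0.69, adjusted p = 0.711 from edgeR), 0.93 for *Mthfd2* (SE 0.70) and 0.73 for *Ddit4* (SE 0.38). Unadjusted p-values under 0.05 were found for 2 of the 10 genes and 6.59% of all tested genes. DESeq2 called 0 of the 10.

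Activated cells had more mRNA of *Asns*, *Psat1* and *Chac1* than quiescent cells in both genotypes, while *Phgdh* passed the test in WT only, which is not shown to be a difference between the genotypes. In WT, *Asns* rose by a log2 fold change of 2.83 (SE 0.42, adjusted p = 3.95e-05 from edgeR), *Psat1* by 2.13 (SE 0.33), *Phgdh* by 1.27 (SE 0.38, adjusted p = 0.0158) and *Chac1* by 1.11 (SE 0.33, adjusted p = 0.0167). These were 4 of 10 genes called higher, against 9.65% of all tested genes, and 0 were called lower, against 16.5%. *Trib3* (1.16, adjusted p = 0.0781), *Mthfd2* (1.13, adjusted p = 0.0846) and *Sesn2* (-1.19, adjusted p = 0.0727) missed the adjusted p in edgeR's test, and *Ddit4* (-0.96, adjusted p = 0.0143) missed the fold. *Atf4* was at -0.40 (adjusted p = 0.228) and *Ddit3* at 0.19 (adjusted p = 0.612). The median of the 10 genes was 1.12, against -0.92 over all tested genes. When genes with a mean count under 10 were left out, the median of all genes was -0.46. *Phgdh* lost its call without activated WT replicate 1 (1.10, adjusted p = 0.171) and *Chac1* without activated WT replicate 2 (0.98, adjusted p = 0.122). In edgeR fitted on the WT libraries alone 7 of the 10 genes passed, 6 higher and 1 lower, with *Trib3*, *Mthfd2* and *Sesn2* in addition. That fit called 7167 of its 21427 genes in either direction.

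In KO cells 6 genes rose: *Trib3* by 2.78 (SE 0.46, adjusted p = 0.00011 from edgeR), *Asns* by 2.71 (SE 0.42), *Psat1* by 2.15 (SE 0.33), *Mthfd2* by 2.06 (SE 0.47), *Ddit3* by 1.34 (SE 0.28) and *Chac1* by 1.09 (SE 0.33), all log2 fold changes. That was 6 of 10 genes against 11.1% of all tested genes, and 0 of 10 were called lower against 18.5%. *Phgdh* (0.67, adjusted p = 0.178), *Sesn2* (-1.17, adjusted p = 0.0695), *Ddit4* (-0.24) and *Atf4* (-0.18) did not pass in edgeR's test. *Sesn2* was called lower in KO with DESeq2 (-1.13, adjusted p = 0.0468) and in edgeR without the filter on low counts (-1.18, adjusted p = 0.00182). It was also called lower in edgeR without quiescent KO replicate 1 (-1.41, adjusted p = 0.0234) or without activated KO replicate 1 (-2.34, adjusted p = 0.00706). The median was 1.22, against -0.96 over all tested genes. Without activated KO replicate 2, *Ddit3* lost its call (0.65, adjusted p = 0.199), as did *Chac1* (0.92, adjusted p = 0.151), and *Trib3* dropped to 1.48. *Chac1* also fell below the fold limit without quiescent KO replicate 1 (0.92) or 2 (0.99). *Asns* and *Psat1* passed in both genotypes in every alternative fit, with log2 fold changes from 1.61 to 3.06. In the main edgeR fit *Ddit3*, *Trib3* and *Mthfd2* passed in KO and not in WT, and *Phgdh* in WT and not in KO. DESeq2 called *Trib3* (1.22, adjusted p = 0.0475) and *Mthfd2* (1.20, adjusted p = 0.0465) in WT as well. No difference between the genotypes is shown by these calls, since the test of the difference itself, given above, did not pass.

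**Figure D4:**
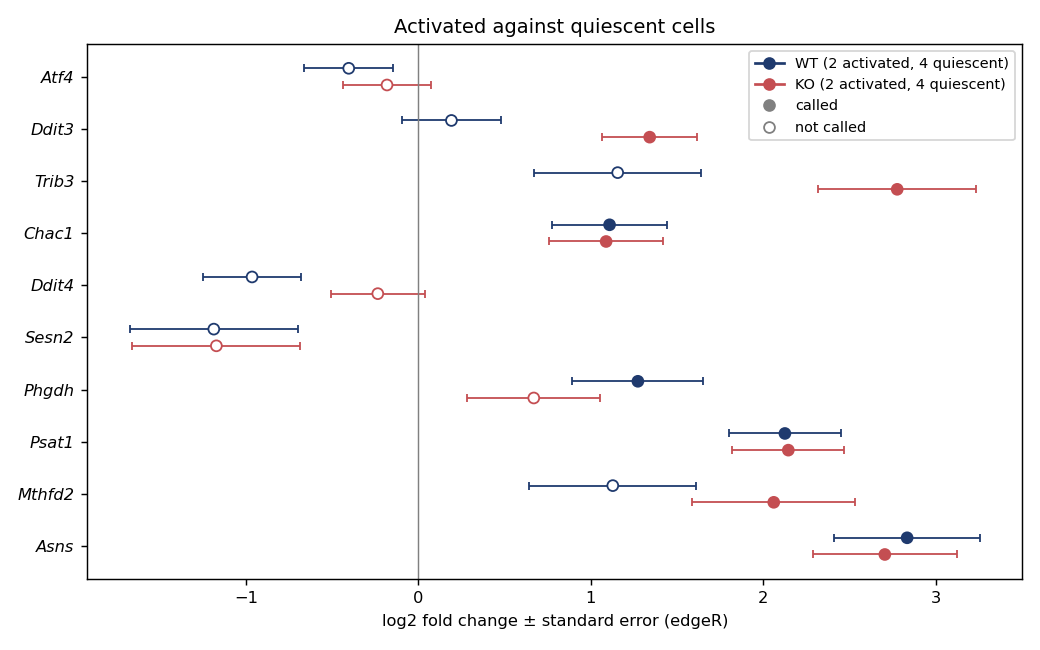
Log2 fold change of activated against quiescent cells (x axis, points, with standard errors as bars) for each gene in WT and KO. Filled points were called: *Asns*, *Psat1* and *Chac1* in both genotypes, *Phgdh* in WT, and *Trib3*, *Mthfd2* and *Ddit3* in KO.

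The wider pathway was followed in 82 companion genes, all of which could be tested. None was called between KO and WT in quiescent or activated cells by edgeR. In activated cells 9 of the 82 had an unadjusted p under 0.05, as did 8.37% of all tested genes. In quiescent cells none had, against 1.74% of all tested genes, and DESeq2 called 0. In activated cells DESeq2 called 2 companion genes, and 144 over all genes. The 2 genes, named after their values were seen, were *Cbs*, of cysteine synthesis, and *Atf3*, a stress-induced transcription factor. *Cbs* had 0 and 1 counts in activated WT and 24 and 6 in activated KO libraries. *Atf3* was at 163 and 39.4 CPM in activated WT and at 24.9 and 44.7 CPM in activated KO libraries, which overlapped. All 11 cytosolic tRNA synthetase genes had a higher fitted level in activated KO than WT cells, by log2 fold changes of 0.18 to 0.74. For 10 of them the KO libraries exceeded the WT libraries, against 15.2% of all tested genes, and 0 had an unadjusted p under 0.05. Of all 82 companion genes, 48 had a higher and 34 a lower fitted level in activated KO cells. For 28 of the 82 both KO libraries exceeded both WT libraries, against 15.2% of all tested genes. For 5 both were below them, a position whose share over all tested genes was not computed.

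With activation, 25 companion genes rose and 16 fell in WT, and 33 rose and 18 fell in KO. Over all tested genes, 9.65% rose and 16.5% fell in WT, and 11.1% rose and 18.5% fell in KO, so that the share of the 82 genes that fell was near that of all genes. The share of all tested genes called in both genotypes was not computed, so the counts per list that follow have no background beside them. Of the 16 genes of the stress kinases, eIF2, its exchange factor and its phosphatase, 7 rose and 3 fell in both genotypes. The eIF2B subunits *Eif2b1* (2.07 in WT and 1.79 in KO) and *Eif2b2* (2.06 and 1.67) rose, and *Ppp1r15a*, which directs the phosphatase to eIF2 and ends the response, fell (-2.17 and -2.53), all log2 fold changes given for WT and then KO. Of 8 transcription factor genes, 1 rose and 3 fell in both genotypes. *Atf5*, a relative of *Atf4*, rose by 1.62 and 2.78, while *Atf3* (-3.11 and -4.57) and *Jdp2* (-2.56 and -2.74) fell. Of 13 secreted and other ATF4 targets, 3 rose and 3 fell in both. *Eif4ebp1*, a translation inhibitor, rose by 2.05 and 2.37, and *Herpud1*, of endoplasmic reticulum protein degradation, fell (-2.81 and -2.38). *Cbs* fell from 17.7 to 31.6 CPM in quiescent libraries to 0 to 6.16 CPM in activated ones.

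Of 17 enzymes of serine, glycine, one-carbon and proline metabolism, 8 rose and 3 fell in both genotypes. *Gcsh*, of the glycine cleavage system, rose by 2.98 in WT and 2.78 in KO, and *Shmt2*, which converts serine to glycine in mitochondria, by 2.16 and 2.30 on the log2 scale. Of 10 amino acid transporter genes, 2 rose and 1 fell in both. *Slc7a11*, the cystine importer, rose by 5.75 in WT and 5.21 in KO. Its level was 3.92 to 7.45 CPM in quiescent libraries, 364 and 266 CPM in activated WT and 327 and 54.8 CPM in activated KO libraries. The glutamine carrier *Slc1a5* rose by 1.11 and 1.17, and *Slc38a2* fell (-2.26 and -1.67). Of the 11 tRNA synthetases, 2 rose in both genotypes, *Sars* for serine (2.16 and 2.74) and *Gars* for glycine (1.15 and 1.19). Of 7 paralogues of the 10 genes, *Ddit4l* rose by 3.25 and 3.66 and *Trib1* fell (-4.30 and -5.22), with fitted values of *Ddit4* and *Trib3* of the opposite sign in the same cells.

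**Figure D5:**
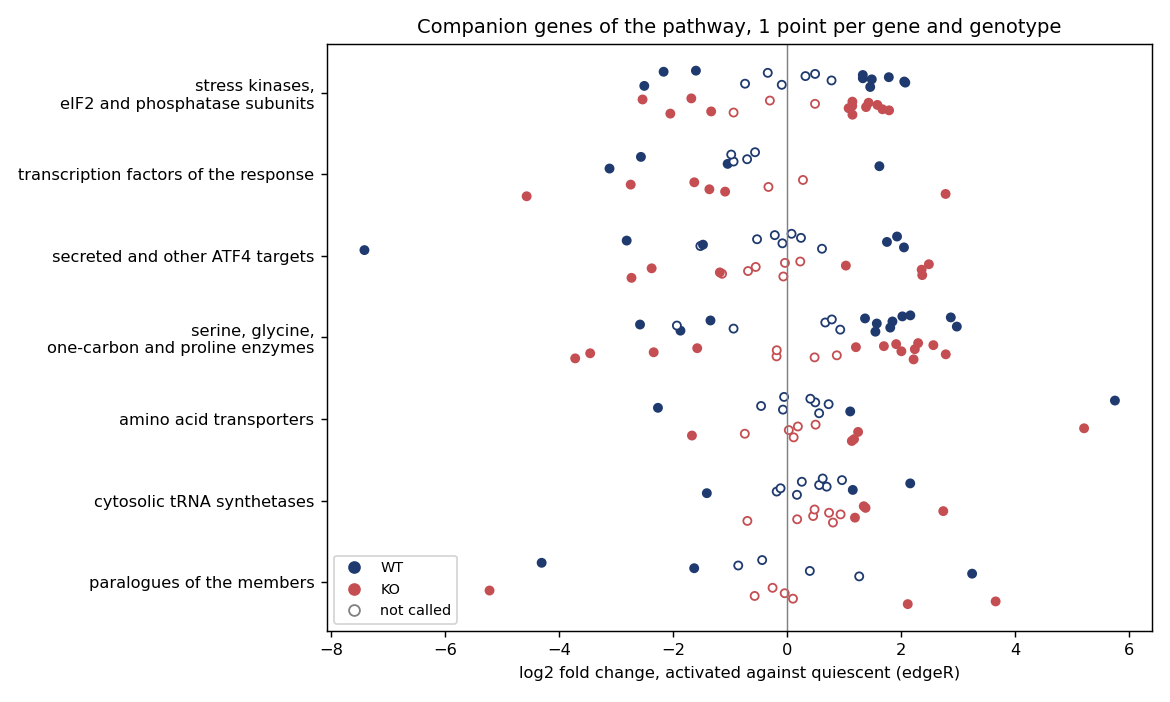
Log2 fold change of activated against quiescent cells (x axis) for 82 companion genes in 7 lists, 1 point per gene and genotype, filled where called. *Slc7a11* (5.75 in WT) is the farthest to the right, and the leftmost point is *Cbs* in WT, where activated libraries had 0 and 1 counts.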

How the data were processed

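RNA-seq of 12 libraries of sorted mouse satellite cells was used. Coordinates were taken from GENCODE M21. Per the labels, the reads were trimmed with Trim Galore 0.6.0 and mapped with STAR 2.7.2a to GRCm38.p6, and the authors counted them on GENCODE genes. The deposited counts are raw whole numbers per gene. The authors also deposited FPKM, 1 value per group, which have no replicates and were used for levels between genes only. The treatment of reads shared by overlapping genes is not given in the sources used here. Groups came from the labels.

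From the counts, genes were kept by filterByExpr (25771 of 55401), libraries were scaled by TMM, and 1 model with a mean per group was fitted over all 12 libraries with edgeR 4.0.16 in R 4.3.3 (quasi-likelihood F test, Benjamini-Hochberg over all tested genes). A gene was called at an adjusted p under 0.05 if its log2 fold change also exceeded 1 in size and its normalized count averaged over 10 in the compared groups. The standard error was the log2 fold change divided by the square root of F. Errors of CPM were SDs. The scripts were tested on simulated counts. No pair of libraries agreed within sampling noise.

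The 10 genes and the lists were chosen with earlier results of these data known. Text names all 10 genes, companion genes called between KO and WT, and in each companion list up to 3 genes with the smallest p among those called with activation in both genotypes, apart from 1 that is not reported here. Of 83 companion genes, 82 had a row. Alternatives were RLE size factors, no filter, a mean count of at least 10, DESeq2 1.42.0, the compared groups only, the replicate number as a block, the adjusted p alone, removal of the ribosomal RNA gene, and leaving out each library.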

Additional observations from a re-analysis of the deposited data

Results flagged for a closer look

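Among the 20 sets of 4 quiescent libraries (10 genes in each genotype), Dixon's test at its 95% critical value found 2 with a library far from the others, where chance gives about 1 in 20. *Atf4* in quiescent KO replicate 4 was at 1379.7 CPM, against 1005 to 1051 CPM in the other KO libraries. *Sesn2* in quiescent WT replicate 4 was at 161.07 CPM, against 85.8 to 96.1 CPM in the other WT libraries. Groups of 2 activated libraries were not tested.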

How the results depend on the processing

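For activated against quiescent WT cells, the count of 4 called genes became 7 without the low-count filter, on the compared groups only and with the replicate block. Over all genes these fits called 6772 of 46597, 7167 of 21427 and 6632 of 25771, against 6750 of 25771 in the main fit. Between KO and WT in activated cells, 0 became 1 without the filter. Leaving out 1 library at a time gave 3 to 7 called genes for WT activation and 4 to 7 for KO activation, and 0 to 0 for each KO contrast. The 7 in WT without a library came from leaving out quiescent KO replicate 4, which enters that contrast only through the shared filter, scaling and spread. The other alternatives stayed within 1.5 times the counts given, and the cause of the differences was not tested. Between KO and WT, no call was made with any library left out, but signs turned. In activated cells the log2 fold change ranged over -0.19 to 0.41 (*Asns*), -1.05 to 0.11 (*Phgdh*), -0.39 to 0.48 (*Psat1*) and -1.33 to 0.43 (*Sesn2*). In quiescent cells it ranged over -0.14 to 0.065 (*Atf4*), -0.035 to 0.49 (*Chac1*), -0.099 to 0.085 (*Ddit3*), -0.052 to 0.19 (*Ddit4*), -0.34 to 0.66 (*Mthfd2*), -0.047 to 0.32 (*Psat1*), -0.59 to 0.088 (*Sesn2*) and -0.32 to 0.33 (*Trib3*). *Phgdh* in KO activation ranged over -0.054 to 1.17. Of the companion genes, *Atf3* and *Cbs* were called between activated KO and WT cells without the filter and with DESeq2, and at most 3 with a library left out. RLE size factors moved the median of all genes by under 0.1. Whether replicate numbers pair the libraries was not settled. Correlations of deviations between same-numbered WT and KO libraries were 0.24, 0.16, -0.27 and 0.59 in quiescent and -0.07 in activated cells. Not every library correlated best with its own number. Total counts of same-numbered quiescent WT and KO libraries were close: 17532019 and 17238391, 12775593 and 13075208, 23058947 and 22897189, and 22785815 and 23717013. The main fit took no pairing into account. The replicate block therefore carries no claim; with it *Mthfd2*, *Trib3* and *Ddit4* joined the WT calls (log2 fold changes 2.04, 1.44 and -1.07), and none of the 10 was called between KO and WT. Counting error limits *Asns*, *Phgdh* and *Trib3* most in activated libraries, and *Asns* in quiescent libraries too. The 2 libraries per genotype limit all activated comparisons.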
